A study of Mus musculus with 6 samples.

Results

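The Notch pathway was followed through 10 of its genes in 6 RNA-seq libraries from mouse OPCs (oligodendrocyte progenitor cells), the dividing precursors of myelin-forming cells. The genes were taken by symbol from the 24421 listed: the ligand genes Dll1, Dll3 and Jag1, the receptor genes Notch1 and Notch2, the target genes Hes1 and Hes5, and the regulator genes Numb, Numbl and Dtx1. All 10 passed the expression filter, as did 15906 genes in all. The control group was 3 libraries of the genotype Prrc2bf/f, and the knockout group was 3 libraries of Prrc2bf/f; Olig2-Cre, both from C57BL/6J pups at postnatal day 4. Floxed Prrc2b was therefore shared by both groups, and Olig2-Cre, which acts in cells that express or have expressed Olig2, was carried by the knockout group alone. Prrc2b encodes an RNA-binding protein, and the series asks how its loss relates to reduced myelin. As the Cre was never present without the floxed gene, what the Cre allele does and what Prrc2b loss does cannot be told apart in any difference given here. Per the labels' protocols, the cells came from cortex, were selected on dishes coated with GalC and then O4 antibody and were grown in a medium for proliferation. Whether libraries came from separate animals, and how many animals each held, is not stated, so p-values measure the spread between these libraries only.

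Notch is a receptor cleaved at the cell surface and in the membrane when a ligand on a neighbouring cell binds it. The freed intracellular part joins the DNA-binding protein RBPJ and switches on genes such as Hes1 and Hes5, whose products repress proneural genes. In the oligodendrocyte lineage, Notch signalling is known for holding progenitors back from differentiation, and Delta-like ligands mark cells that are leaving the progenitor state in much of the developing nervous system. Levels below are CPM, counts scaled to a common library size with TMM, and each fold change sets knockout against control on the log2 scale.

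Gene counts per library lay between 26015604 and 28114968, and the members' counts between 397 and 12601, so counting error alone was at most 5.02% (Poisson SD) of a value. Prrc2b itself was lower in all 3 knockouts than in any control, at 989 ± 105 CPM in controls against 743 ± 88.2 CPM in knockouts (SD, n = 3 each). The replicate numbers 1, 2 and 3 of the labels paired the libraries in the data, and each comparison is therefore given also with the number as a block. When no block was fitted, the quasi-likelihood test of edgeR found 0 of 15906 genes past an adjusted p of 0.05, where 274 had an unadjusted p under 0.05. DESeq2 called 20 genes and limma-voom 0. With the block, edgeR called 604 genes (3.80%), of which 354 (2.23%) fell and 250 (1.57%) rose. Prrc2b was among those that fell, by 0.41 on the log2 scale (SE 0.06, blocked edgeR adjusted p = 0.00688), to 0.75 of control. Without the block its change was also -0.41 (SE 0.13) and did not pass. The OPC genes Pdgfra, Cspg4 and Olig2 were present in all libraries, with 14 OPC markers summing to between 3000 and 5890 CPM. Markers listed for other cells were present too, among them 15 neuronal markers summing to between 3430 and 5320 CPM. Most of that sum came from Map2, Dcx and Tubb3 (means of 1040, 1030 and 744 CPM in controls), and the lowest of the 15 was Slc17a7 at 4.33 CPM. Which cells made these transcripts was not tested.

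Of the 10 Notch genes, 4 fell with the block and 0 rose: Dll1, Dll3, Numbl and Dtx1. A share of 2.23% of all tested genes fell in that fit. With the block the count stayed at 4 with DESeq2 size factors, no filter, DESeq2 or limma-voom. It was 1 with library totals, at a mean of 5 CPM or more, or after GC correction. The members and the use of the block were chosen with earlier results of these data known. Without the block 0 of the 10 passed by edgeR, DESeq2 or limma-voom, and 1 of them, Dtx1, had an unadjusted edgeR p under 0.05. The median blocked log2 fold change was -0.12 over the 10 genes and 0.00 over all tested genes. In all 3 same-numbered pairs, 5 of the 10 were lower (Dll1, Dll3, Hes5, Numbl and Dtx1; 20.9% of tested genes) and 1 was higher (Hes1; 19.6% of tested genes). The groups did not overlap for 1 of the 10, Dtx1, against 6.34% of tested genes. In bulk RNA such as this, fewer cells of a type and less RNA per cell cannot be told apart.

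**Figure D1:**
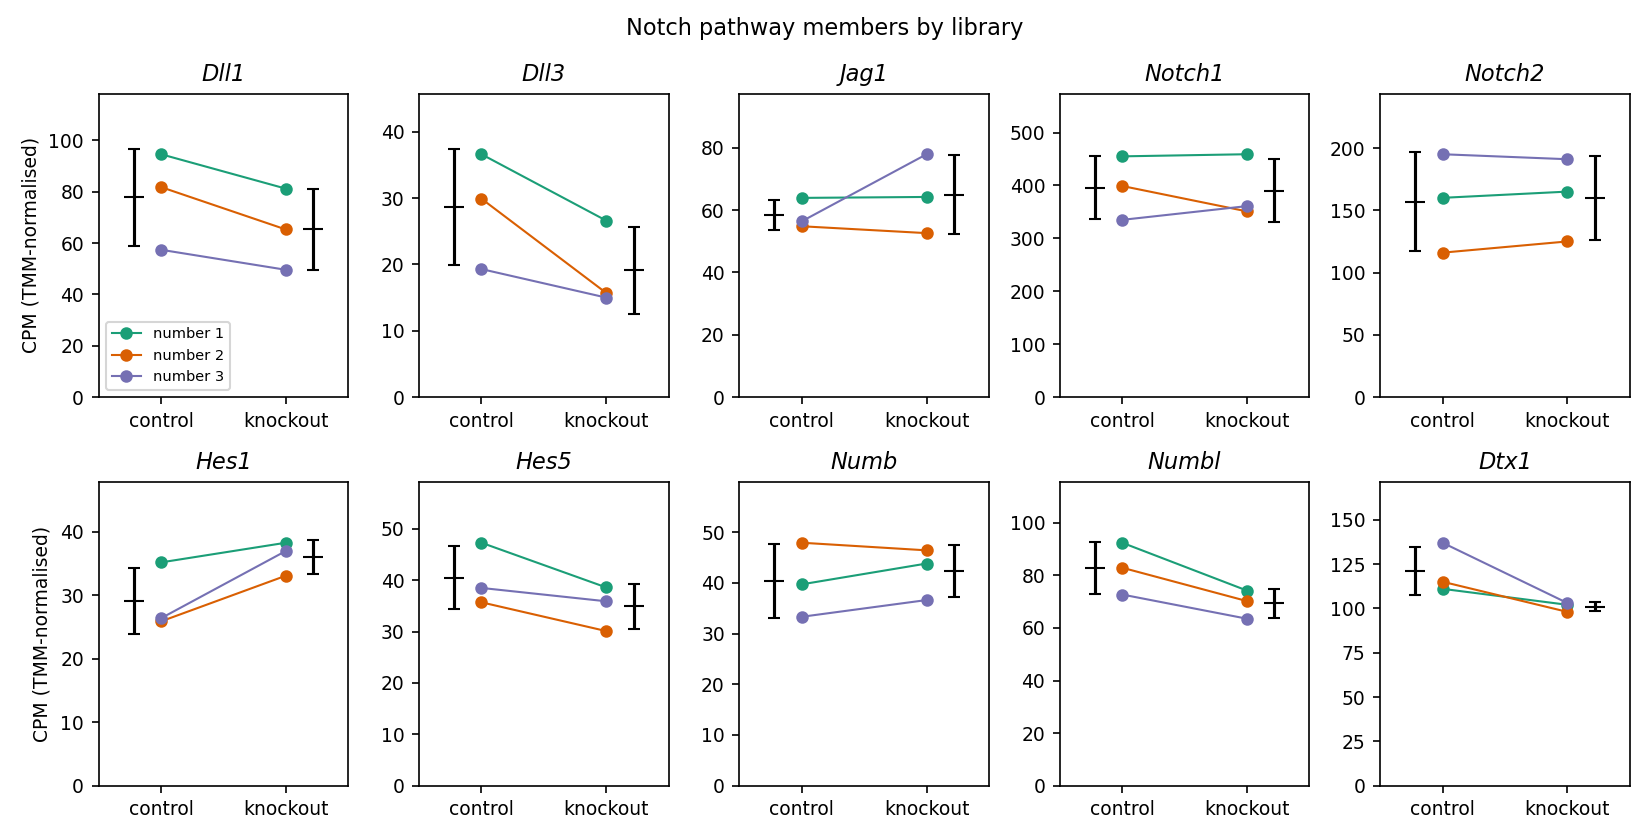
Level of each Notch gene in each library. The vertical axis is TMM-normalised CPM and starts at 0; points are libraries, lines join control and knockout libraries of the same number, and black bars are mean ± SD (n = 3). Dll1, Dll3, Hes5, Numbl and Dtx1 slope down on all 3 lines and Hes1 slopes up on all 3.

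**Figure D2:**
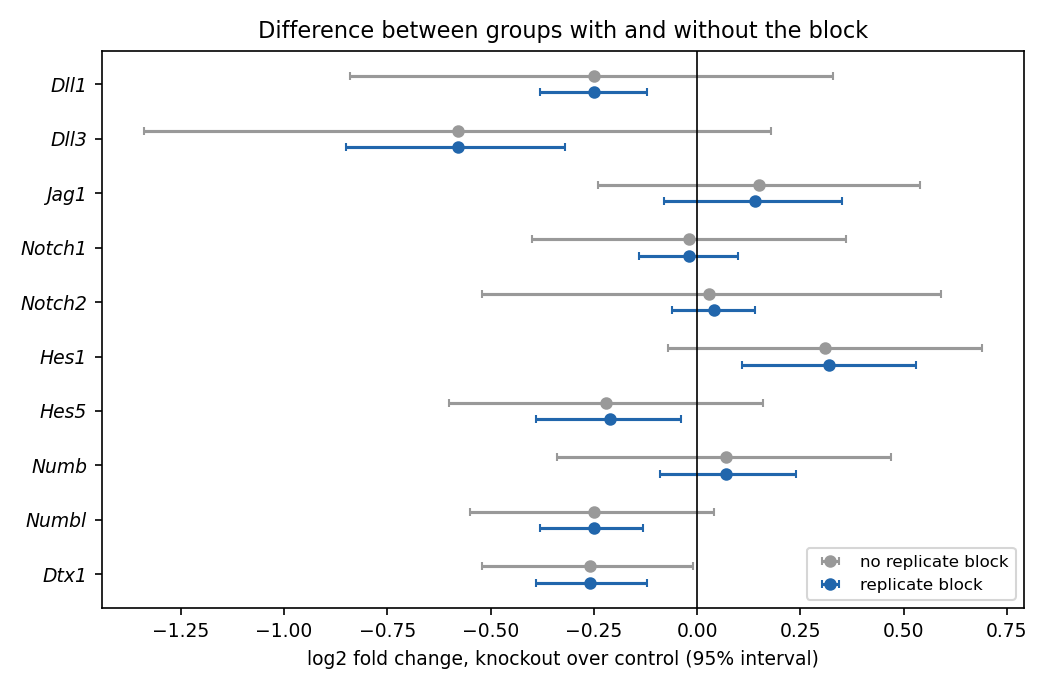
Log2 fold change of each Notch gene, knockout over control, with its 95% interval. Grey points are the edgeR fit without the replicate block and blue points the fit with it; the estimates hardly differ, and the intervals are narrower with the block.

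Adjusted for transcript length, the members lay in the upper part of the tested genes, from percentile 60.0 for Dll3 to percentile 88.2 for Notch1 and Hes5. Hes5 stood at 29.7 ± 4.47 CPM per kilobase of exon in control libraries (SD, n = 3), Notch1 at 27.8 ± 4.22 and Dtx1 at 23.0 ± 2.59. Dll1 followed at 18.5 ± 4.49 CPM per kilobase, then Notch2 at 14.6 ± 3.67 and Hes1 at 14.3 ± 2.58. The lowest were Numb at 10.3 ± 1.87, Dll3 at 10.0 ± 3.06, Jag1 at 10.0 ± 0.839 and Numbl at 9.54 ± 1.14 CPM per kilobase. Neighbours in this order differed by less than the larger of their SDs, except Notch1 from Dtx1 and Hes1 from Numb, while Dtx1 and Dll1 differed by about the SD of Dll1.

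Of the 3 ligand genes among the members, Dll1 and Dll3 fell with the block, and Jag1 did not pass. Dll1 encodes a ligand that activates Notch on neighbouring cells. Its level was 94.6, 81.8 and 57.4 CPM in the control libraries numbered 1, 2 and 3, and 81.2, 65.3 and 49.6 CPM in the knockout libraries of those numbers. The groups overlapped, while each knockout library lay below the control library of its number. Dll1 fell by 0.25 on the log2 scale (SE 0.06, blocked edgeR adjusted p = 0.0445), to 0.840 of control, and without the block the change was -0.25 (SE 0.24, edgeR adjusted p = 1.00). The call was lost without the pair numbered 1, 2 or 3 (edgeR adjusted p 0.126, 0.189 and 0.110), with library totals (0.0688), among genes averaging 5 CPM or more (0.0700) and after GC correction (0.0717).

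Dll3 encodes a divergent Delta-like protein that does not activate Notch in neighbouring cells and acts within the cell that makes it. Its control libraries stood at 36.6, 29.9 and 19.3 CPM and its knockout libraries at 26.6, 15.7 and 15.0 CPM, in the order of their numbers. All knockout libraries but that numbered 1 lay below every control library. Dll3 had the largest fold change of the 10 genes and fell by 0.58 (SE 0.12, blocked edgeR adjusted p = 0.0305), to 0.668 of control. Without the block the change was -0.58 (SE 0.32, edgeR adjusted p = 1.00). The call was lost after GC correction (-0.44, edgeR adjusted p = 0.0948) and without the pair numbered 2 (-0.41, 0.0997) or 3 (-0.68, 0.0517), and held in the other 6 settings with all pairs and without the pair numbered 1 (0.0414).

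Jag1 encodes the ligand of the Jagged class, which in brain is made also by astrocytes and by cells of vessels. It stood at 63.9, 54.8 and 56.4 CPM in controls against 64.2, 52.6 and 77.9 CPM in knockouts. The knockout library numbered 3 was the highest of all 6, and the other libraries lay close together. The blocked change was 0.14 (95% interval -0.08 to 0.35, edgeR adjusted p = 0.503), and -0.02 without the pair numbered 3. The same library had the highest sum of 12 endothelial markers, at 363 CPM against 23.4 to 147 CPM in the other 5, and the highest sum of 8 pericyte markers, at 484 CPM against 67.5 to 376 CPM. With the block 10 of the endothelial markers rose, 0 fell and 2 missed the threshold (median log2 fold change 1.44), and 0 markers of either list were at 0 in all libraries. Their part in the Jag1 values was not tested.

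Promoter windows of 250 bases upstream of RefSeq transcription starts (GRCm38.p6) were matched for 9 of the 10 members, Hes1 having none in the table used. They were searched on both strands for the RBPJ core TGGGAA and for the E-box CAGCTG, a palindrome of the kind bound by proneural factors. Of 32851 promoter windows of that length, 21.6% held the RBPJ core and 13.0% the E-box. The E-box was found in the windows of all 3 ligand genes, where Dll1 has 2 starts and held it at the upstream one, and of no other member; no ligand window held the RBPJ core. The motifs do not overlap each other. The sequences are shown for the E-box, in capitals, and each reads from the 5′ end on the gene's strand. The part of this motif in the levels was not tested. The Dll1 window lies at chr17:15376933-15377182 on the minus strand, with the E-box beginning 132 bases before the start. It overlaps no Dll1 exon but an exon of the opposite-strand transcript A930024N18Rik. For Dll3 (chr7:28301786-28301815, minus strand, E-box 7 bases before the start) and Jag1 (chr2:137116585-137116614, minus strand, E-box 82 bases before the start), only 30 bases at the E-box are given. Their windows reach into exons of longer transcripts in GENCODE. The 30 bases also lie inside the GENCODE spans of these genes, which on the minus strand begin at 28302238 (Dll3) and 137116644 (Jag1). They are thus upstream of the RefSeq starts alone. A match is a run of letters and no evidence of binding.
Dll1: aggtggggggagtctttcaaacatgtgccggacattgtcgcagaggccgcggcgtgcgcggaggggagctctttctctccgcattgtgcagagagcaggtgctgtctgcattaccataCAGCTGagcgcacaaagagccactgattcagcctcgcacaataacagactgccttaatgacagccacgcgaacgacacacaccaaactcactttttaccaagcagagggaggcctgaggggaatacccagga
Dll3: aaatataagactccggcatccagCAGCTGc
Jag1: ccgcgtttcatgCAGCTGatctgaaaggga

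Neither receptor gene passed. Notch1, the receptor with the highest level here, stood at 455, 399 and 335 CPM in controls against 459, 351 and 361 CPM in knockouts. Its groups overlapped over most of their range, and the blocked change was -0.02 (95% interval -0.14 to 0.10, edgeR adjusted p = 0.878). Notch2, the other receptor common in glia, stood at 160, 116 and 195 CPM in controls against 165, 125 and 191 CPM in knockouts. The spread followed the number and not the group, with the pair numbered 3 highest in both groups and that numbered 2 lowest. The blocked change of Notch2 was 0.04 (95% interval -0.06 to 0.14, edgeR adjusted p = 0.678), and neither interval reaches beyond 0.14 on the log2 scale in either direction. The sign of the Notch1 change turned with library totals and after GC correction (both 0.00) and without the pair numbered 2 (0.06).

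Both target genes missed the threshold, with opposite signs. Hes1, a repressor that is also driven by signals other than Notch, stood at 35.2, 25.9 and 26.4 CPM in controls against 38.3, 33.1 and 37.0 CPM in knockouts. It was higher in all 3 pairs, though the control library numbered 1 lay above the knockout library numbered 2. The blocked change was 0.32 (SE 0.09, 95% interval 0.11 to 0.53, edgeR adjusted p = 0.0957), and adjusted p ranged from 0.0613 to 0.122 over 7 other settings with the block. Hes5, which in neural progenitors depends closely on Notch, stood at 47.3, 35.7 and 38.5 CPM in controls against 38.6, 30.1 and 35.9 CPM in knockouts. It was lower in all 3 pairs and the groups overlapped, with a blocked change of -0.21 (SE 0.08, 95% interval -0.39 to -0.04, edgeR adjusted p = 0.181). After GC correction the change was -0.07 (edgeR adjusted p = 0.679), the transcript being 62.1% G and C.

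The Hes5 promoter window is shown for its RBPJ cores, in capitals, as the sole one of the matched member windows that held any. It lies at chr4:154960673-154960922 on the plus strand, and the 2 cores begin 226 and 82 bases before the start, on opposite strands. It overlaps no Hes5 exon but an exon of the opposite-strand transcript Gm20421, which also shares 433 of the 1363 exon bases of Hes5. Gm20421 has no entry of its own in the count tables, and for the use of strand in counting the sources used here give no setting.
Hes5: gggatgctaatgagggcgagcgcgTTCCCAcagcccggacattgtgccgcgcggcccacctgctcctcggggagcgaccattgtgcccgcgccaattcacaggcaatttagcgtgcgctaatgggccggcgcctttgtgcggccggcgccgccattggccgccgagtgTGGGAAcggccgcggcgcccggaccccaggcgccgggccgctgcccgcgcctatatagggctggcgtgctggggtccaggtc

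Of the 3 regulator genes, Numbl and Dtx1 fell with the block and Numb did not pass. Numb encodes an endocytic adaptor that limits Notch in the daughter cell that inherits it. It stood at 39.7, 47.9 and 33.3 CPM in controls against 43.8, 46.4 and 36.6 CPM in knockouts, the knockout range lying within the control range, with a blocked change of 0.07 (95% interval -0.09 to 0.24, edgeR adjusted p = 0.666). Numbl, its paralog in the nervous system, stood at 92.4, 82.9 and 72.7 CPM in controls against 74.2, 70.2 and 63.5 CPM in knockouts. Each knockout library was below its pair, and of the 3 the library numbered 1 was above the lowest control library. Numbl fell by 0.25 (SE 0.06, blocked edgeR adjusted p = 0.0417), to 0.840 of control, against -0.25 (SE 0.12, edgeR adjusted p = 1.00) without the block. The call was lost without the pair numbered 1, 2 or 3 (edgeR adjusted p 0.189, 0.111 and 0.101), with library totals (0.0697) and among genes averaging 5 CPM or more (0.0775), and held after GC correction (-0.26, 0.0495). Numb and Numbl are related in sequence, and the sources used here do not say how read pairs matching both were counted.

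Dtx1 encodes a Deltex ubiquitin ligase that binds the intracellular part of Notch and is itself induced by Notch in several cell types. It stood at 111, 115 and 137 CPM in controls against 102, 98.0 and 103 CPM in knockouts. All knockout libraries lay below all control libraries (3.60% of tested genes had that pattern), and their SD was 2.59 CPM against 13.6 CPM in control. Dtx1 fell by 0.26 (SE 0.06, blocked edgeR adjusted p = 0.0491), to 0.837 of control. Without the block the change was -0.26 (SE 0.11, edgeR adjusted p = 1.00). After GC correction it was -0.12 (edgeR adjusted p = 0.397), the transcript being 62.5% G and C. The call was lost also with library totals (0.0755), at a mean of 5 CPM or more (0.0863) and without the pair numbered 2 (0.0696) or 3 (-0.18, 0.251), and held without the pair numbered 1 (0.0236).

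**Figure D3:**
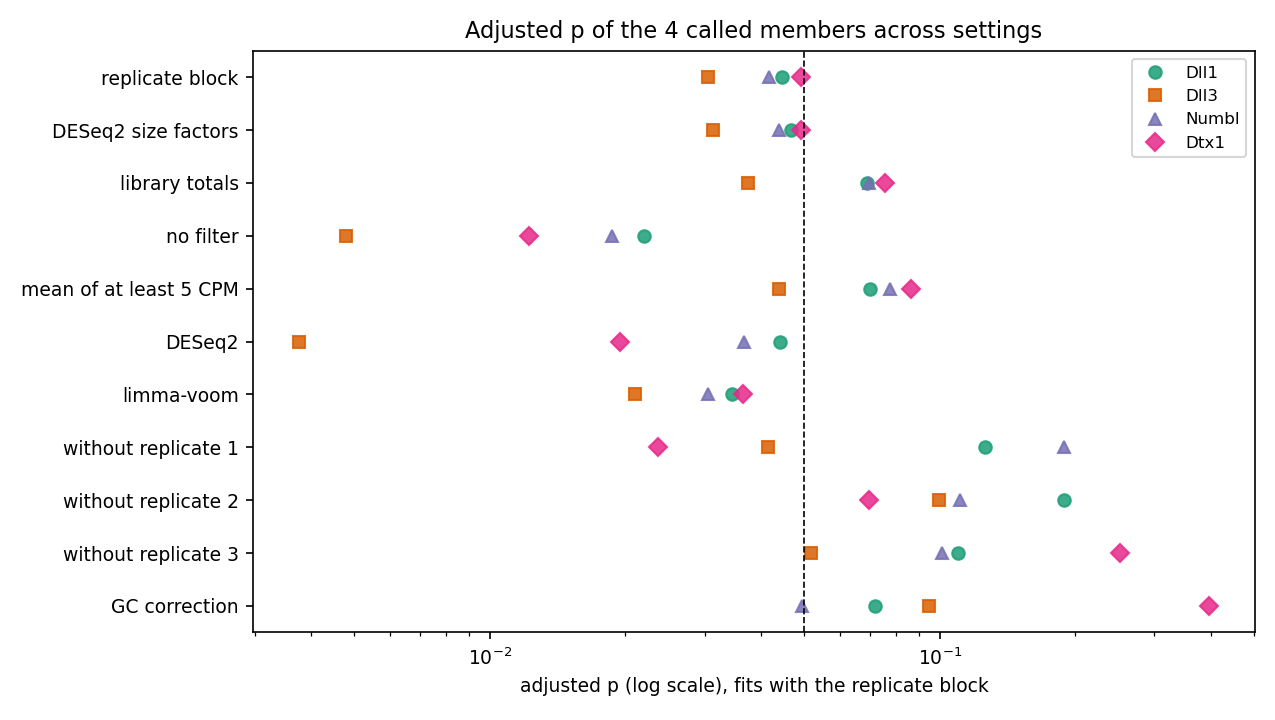
Adjusted p of Dll1, Dll3, Numbl and Dtx1 in fits with the replicate block, on a log axis, one row per setting, with a dashed line at 0.05. In the reference setting at the top the 4 genes lie between 0.0305 and 0.0491. Without the pair numbered 2 or 3 all 4 lie to the right of the line, and without that numbered 1 Dll1 and Numbl do. With library totals and at a mean of 5 CPM or more all but Dll3 lie to the right, and after GC correction all but Numbl.

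Of 57 further genes of the pathway, 55 were tested, of which 1 rose, 2 fell and 52 did not pass with the block (3.80% of tested genes were called). Without the block 0 passed by edgeR, DESeq2 or limma-voom, and 1 had an unadjusted edgeR p under 0.05. The median blocked log2 fold change was -0.02, against 0.00 over all tested genes. The groups did not overlap for 3 of the 55 (5.45%), Rfng, Spen and Hes6, against 6.34% of tested genes. Neurog1 and Atoh1, both proneural factors, were too low to test.

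Among the other ligands, Cntn1 rose and 5 did not pass. Cntn1 encodes the adhesion protein contactin-1, reported as a Notch ligand towards oligodendrocyte precursors and made by neurons and OPCs. It stood at 216, 116 and 219 CPM in controls against 262, 142 and 272 CPM in knockouts, higher in all 3 pairs by a similar amount. Cntn1 rose by 0.30 (SE 0.04, blocked edgeR adjusted p = 0.00425), and kept the call in 7 of 7 other settings with the block and without each pair (at most 0.0432). Dll4, a ligand typical of vessels, was next at 8.26 ± 1.12 CPM in controls against 13.2 ± 5.06 CPM in knockouts (SD, n = 3), a blocked change of 0.62 (SE 0.19, edgeR adjusted p = 0.124). Dll4 was at 0.29 without the pair numbered 3 (edgeR adjusted p = 0.547). Of the other receptors, Notch4, found mainly in endothelium, was at 0.67 (SE 0.17, edgeR adjusted p = 0.0684) and Notch3, found in pericytes and progenitors, at 0.07 (SE 0.06, 0.588). With no filter Dll4 and Notch4 passed (edgeR adjusted p 0.0484 and 0.0351), Notch4 also after GC correction (0.0451). The 12 endothelial markers summed to between 23.4 and 110 CPM in control and between 53.9 and 363 CPM in knockouts, higher in each pair, and their part in the Dll4 and Notch4 values was not tested.

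Genes that make the receptor competent or cleave it did not pass. Of 10 genes for receptor processing, which include the ADAM proteases and the gamma-secretase subunits, 0 passed, and the smallest p belonged to the subunit genes Aph1b (-0.15, SE 0.06, blocked edgeR adjusted p = 0.237) and Aph1c (0.30, SE 0.15, 0.358). Of 5 genes that add sugars to the receptor 0 passed, with Rfng at -0.16 (SE 0.06, edgeR adjusted p = 0.208) and Pofut1 at -0.13 (SE 0.07, 0.341). Of 12 genes of ubiquitination and endocytosis 0 passed, with the ligase genes Mib2 at -0.18 (SE 0.05, edgeR adjusted p = 0.113) and Dtx3l at 0.43 (SE 0.15, 0.165). After GC correction Mib2 was at -0.04 (edgeR adjusted p = 0.777) and Rfng at -0.10 (0.492). Dtx1 is the one Deltex gene called, and its difference from Dtx2, Dtx3, Dtx3l and Dtx4 was not tested.

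In the nuclear complex, the corepressor gene Tle1 fell and 12 of 13 genes did not pass, Rbpj among them at 149 ± 20.8 CPM in controls against 152 ± 16.8 CPM in knockouts. TLE1 is a Groucho protein recruited by HES repressors. Tle1 stood at 250, 288 and 150 CPM in controls against 218, 255 and 137 CPM in knockouts, and fell by 0.17 (SE 0.04, blocked edgeR adjusted p = 0.0328). It was lowest in the pair numbered 3 and lower in each knockout library than in its pair. The call was lost without the pair numbered 1, 2 or 3 (edgeR adjusted p 0.116, 0.0860 and 0.123), with library totals (0.0633), at a mean of 5 CPM or more (0.0545) and with DESeq2 (0.0519). Spen, which encodes a corepressor that binds RBPJ, had the next smallest p, at -0.09 (SE 0.04, blocked edgeR adjusted p = 0.237). Its levels were 376, 388 and 374 CPM in controls against 360, 363 and 349 CPM in knockouts, without overlap.

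Of 6 other target or Hes-family genes, Hes6 fell and 5 did not pass. Hes6 encodes a relative of HES1 that counteracts it and promotes neuronal differentiation. It stood at 49.5, 45.8 and 41.2 CPM in controls against 36.9, 37.8 and 33.7 CPM in knockouts, without overlap, and fell by 0.33 (SE 0.07, blocked edgeR adjusted p = 0.0401). The call was lost after GC correction (-0.19, edgeR adjusted p = 0.211), with library totals (0.0647), at a mean of 5 CPM or more (0.0644) and without the pair numbered 1, 2 or 3 (0.191, 0.0771 and 0.115). Heyl, a target of vessel walls and astrocytes, was at 0.50 (SE 0.13, edgeR adjusted p = 0.0640), and Nrarp, a feedback inhibitor often read as a gauge of Notch activity, at 0.01 (SE 0.06, 0.969). Nrarp was chosen with its values in view. The proneural gene Neurog2 was lower in all 3 pairs and did not pass, at -0.39 (SE 0.11, edgeR adjusted p = 0.0789). With no filter Neurog2 and Heyl passed (edgeR adjusted p 0.0412 and 0.0307).

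**Figure D4:**
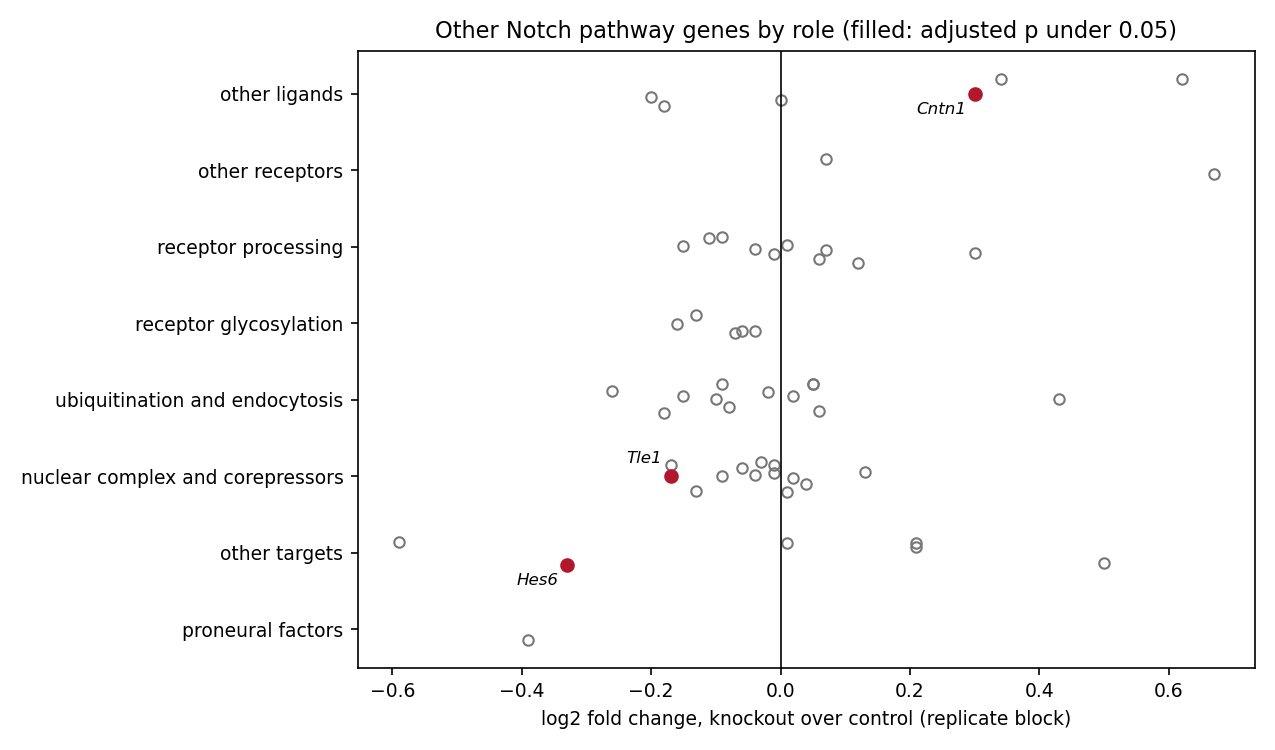
Blocked log2 fold change of the 55 other tested Notch pathway genes, one point a gene, in rows by role with random vertical scatter. Filled, named points passed at an adjusted p under 0.05: Cntn1 to the right, Tle1 and Hes6 to the left.

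Some markers of other cells moved between groups in the same libraries. Beside the members that fell, the 15 neuronal markers summed to 3890, 5320 and 4250 CPM in control and to 3430, 4950 and 3720 CPM in knockouts, lower in each pair, with 3 that fell, 0 that rose and 12 that did not pass with the block. Of 8 neural progenitor markers 1 fell, 0 rose and 7 did not pass, and of 14 OPC markers 0 passed. Olig2, the gene whose Cre the knockout group carries, stood at 360, 180 and 165 CPM in controls against 342, 94.5 and 115 CPM in knockouts. It was lower in each pair and just missed the threshold, at -0.50 (SE 0.12, blocked edgeR adjusted p = 0.0533) with the block and -0.35 (SE 0.55, edgeR adjusted p = 1.00) without it. Beside Hes1, the 10 astrocyte markers summed to between 1440 and 2580 CPM in control and between 1680 and 3050 CPM in knockouts, higher in each pair, and 4 rose while 6 did not pass. Among 8 markers of ependyma and choroid plexus, 6 rose and 2 missed the threshold, with sums from 354 to 1880 CPM in control and from 825 to 2750 CPM in knockouts. Of 8 pericyte markers 2 rose, 0 fell and 6 did not pass. Of 8 microglia markers and of 8 tested myelin markers 0 passed. No gene of these lists was at 0 in all libraries. The part of these cells in the Notch values was not tested.

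**Figure D5:**
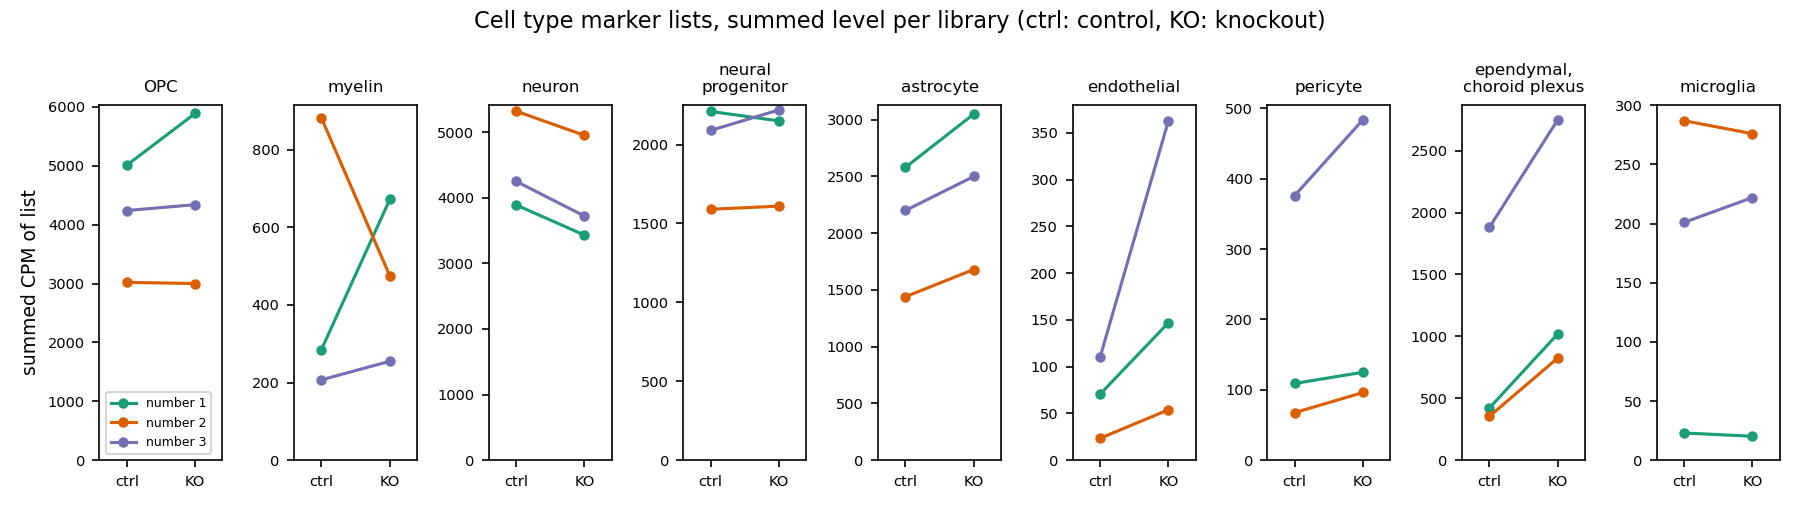
Summed CPM of each cell type marker list in each library, with axes starting at 0, and lines joining libraries of the same number. Endothelial, astrocyte, pericyte and ependymal lists rise on all 3 lines and the neuronal list falls on all 3.

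Genes with the most similar profile were ranked by Pearson correlation of log2 CPM over the 6 libraries, among 10301 genes averaging 10 CPM or more. Nearest to Dll1 were Efs, Ciao1 and Zswim5 (r = 0.999, 0.998 and 0.996). Nearest to Hes1 were Rbms2, Ttll3 and Dnlz (r = 0.988, 0.987 and 0.987), and nearest to Hes5 were Nr2f6, Srp9 and Obsl1 (r = 0.996, 0.992 and 0.984). The 6 points share libraries, numbers and depth, and with so many genes ranked over so few points such values are a description only. None of these 9 genes passed the blocked test.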

How the data were processed

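Poly(A) RNA was made into dUTP-stranded libraries and read from both ends, per the labels' protocols. The deposited values are raw counts per gene symbol, with mm10 as the build and HTSeq 0.12.4, HISAT2 2.2.1 and DESeq2 1.26.0 as tools of unstated role, per the submitters' processing notes. The annotation and the strand setting are not stated in the sources used here. Of each table, 5 summary entries that name no gene (19.7% and 20.8% of pairs in no gene, as means of control and knockout libraries) were left out. Columns not used numbered 0.

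Counts were filtered with filterByExpr, scaled by TMM over library totals and tested with edgeR 4.0.16 (quasi-likelihood, two-sided, R 4.3.3), group being the sole term, with Benjamini-Hochberg adjustment over 15906 genes. A second fit added the replicate number as a block, with 2 residual degrees of freedom in place of 4. The labels give these numbers without saying what they mark. Deviations from group means correlated at 0.712, 0.682 and 0.654 between same-numbered libraries, which set the pairing. Between libraries of different numbers they correlated at -0.405 to -0.221. As deviations are centred within each group, these values tend to be negative where the same-numbered ones are positive. The pairing was thus taken from the data that the block is used to test. Alternatives used DESeq2 1.42.0, limma-voom (limma 3.58.1), other scalings and filters, left-out libraries or pairs, and a GC correction in 20 bins (15332 tested genes had a GC value from GENCODE M21, GRCm38). Promoters are RefSeq's (GRCm38.p6).

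Counts for 15906 genes were simulated from the replicate means and the dispersions of the blocked fit, with 50 genes changed at each size. With the block 44.0% of 1.3-fold and 60.0% of 1.5-fold changes were recovered, with 18 false calls over all sizes. Without the block 0% of 1.3-fold and of 1.5-fold, 12% of 2-fold and 32% of 3-fold changes were recovered, with 0 false calls. As the replicate effect was built into these counts, the difference between the fits was set in advance and is no support for the block.

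Members, lists and the choice to give the blocked fit beside the other were made with earlier results of these data known. Named were all members, Prrc2b, each further pathway gene called with the block, the 2 of smallest p in each role, and the 3 genes nearest in profile to Dll1, Hes1 and Hes5, predicted gene models left out. Some genes of the pathway list are not reported here, and the list's counts are given without them.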

Additional observations from a re-analysis of the deposited data

How the results depend on the processing

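With the replicate block 4 Notch members, 3 other pathway genes and 604 of all genes passed, against 0, 0 and 0 without it; DESeq2 without the block called 20 genes. With the block and DESeq2 size factors the counts were 4, 3 and 573, with library totals 1, 1 and 502, with no filter 4, 7 and 1034, at a mean of 5 CPM or more 1, 1 and 435, with DESeq2 4, 2 and 680, with limma-voom 4, 3 and 712, and with GC correction 1, 3 and 385. The member called under library totals and at 5 CPM was Dll3, and that under GC correction was Numbl. Without one of the pairs the blocked counts ranged from 0 to 2 members and from 174 to 521 of all genes (448 without that numbered 1), with 1 other pathway gene each time, and in the fit without the block 0 genes passed with any single library left out (a group then holding 2 libraries). Rises were 250 of 604 blocked calls, but 271 of 502 with library totals. Signs turned for Notch1 with library totals (0.00, with or without the block) and GC correction with the block (0.00); without single libraries the unblocked Notch1 change ranged from -0.16 to 0.09, Notch2 from -0.15 to 0.22, Numb from -0.05 to 0.21, Notch3 from -0.49 to 0.61, Tle1 from -0.40 to 0.04 and Heyl from -0.26 to 1.26. Among members whose sign held, the unblocked change ranged from -0.44 (without knockout 1) to -0.09 (without control 1 or knockout 3) for Dll1, from -0.90 (without knockout 1) to -0.36 (without control 1) for Dll3, from -0.34 to -0.17 for Numbl, from -0.32 to -0.16 for Dtx1, from -0.30 to -0.09 for Hes5, from 0.23 to 0.47 for Hes1 and from 0.00 to 0.28 for Jag1. Without one pair the blocked change ranged from -0.08 to 0.06 for Notch1 and from -0.02 to 0.24 for Jag1. The cause of these shifts was not tested. Of 598 values of 26 genes under alternatives, 18 changed sign.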

Other observations

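The ratio of Hes1 to Hes5 counts within a library, which does not depend on how libraries are scaled, stood apart between the groups. It was 0.744, 0.725 and 0.684 in the control libraries numbered 1, 2 and 3 and 0.992, 1.10 and 1.03 in the knockout libraries, or 0.718 ± 0.0303 and 1.04 ± 0.0544 (SD, n = 3 each). The ratio was picked with its values in view from 45 ratios between members, of which 9 (20.0%) did not overlap between groups, against 5.95% of all pairs of tested genes. The member ratios share genes and are not independent of each other. Hes1 was in 6 of those 9, with Dll1, Dll3, Notch1, Hes5, Numbl and Dtx1, its share being higher in the knockout libraries each time. A two-sided exact permutation test of 3 against 3 libraries cannot give a p below 0.1, so no test is reported. The Hes1 and Hes5 transcripts are 50.7% and 62.1% G and C, and after GC correction their blocked log2 fold changes were 0.31 and -0.07, against 0.32 and -0.21 before. The summed astrocyte markers were, like this ratio, higher in each knockout library than in its pair. They were 2580, 1440 and 2200 CPM in controls against 3050, 1680 and 2500 CPM in knockouts, in the order of their numbers. The part of astrocyte RNA in the ratio was not tested.

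The ratio of Dll1 to Dll3 counts was 2.77 ± 0.196 (SD, n = 3) in controls against 3.50 ± 0.576 (SD, n = 3) in knockouts. The groups were separated by a narrow gap, from 2.98 in the control library numbered 3 to 3.05 in the knockout library numbered 1. After GC correction the blocked log2 fold changes of Dll1 and Dll3 were -0.23 and -0.44, against -0.25 and -0.58 before.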
